A study of Mus musculus with 20 samples.

Results

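The genes described here are 8 genes of fatty acid synthesis, Scd1, Scd2, Fasn, Acaca, Acly, Elovl6, Srebf1 and Me1, of the 17097 mouse genes with a probe set under a single symbol in the platform annotation. The list was chosen by pathway membership and with earlier results of these data known, and where a gene had several probe sets the 1 with the highest mean over the 20 arrays was selected on its measured values. Probe sets were found for 6 of the 8, and all 6 passed the filter on dim genes. Scd2 and Srebf1 had no probe set under a single symbol and were not analysed here.

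The study measured whole tumour fragments from the caecum of C57BL/6J mice that carried colorectal tumours grown from 5 mouse tumour organoid lines, called MTO. MTO68 and MTO93 are parental lines of the genotype written LAKTP, MTO140 is an LAKTP line of type LiM, MTO54 is a parental LAKP line and MTO207 is a parental LAKT line. What each letter of a genotype stands for is not stated in the labels. For each line 2 tumours of control mice and 2 of mice given galunisertib, a drug that blocks the kinase of a TGF-beta receptor, were hybridised, which makes 10 groups of 2 and 20 arrays. Galunisertib was given by gavage at 10 mg, 2 times per day, from day 11 until the mice were killed at 5 weeks, and the labels name no vehicle for the controls. Each genotype other than LAKTP is represented by 1 line. MTO140 was injected as organoid spheroids under the serosa of the caecum, whereas tumours of the 4 parental lines were first grown under the skin and then transplanted as pieces. The 4 arrays of a line shared a strip, so line, genotype and strip cannot be told apart. For MTO140 the way of implantation cannot be told apart from the line either.

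Fatty acid synthesis turns citrate into long-chain fatty acids in the cytosol. Acly cleaves citrate to acetyl-CoA, Acaca carboxylates acetyl-CoA to malonyl-CoA, Fasn builds palmitate from both, Elovl6 lengthens palmitate, Scd1 and Scd2 place a double bond in the product, and Me1 supplies NADPH. Srebf1 encodes a membrane-bound transcription factor that, once cleaved, raises the transcription of many of these genes, and it is known as a main regulator of lipogenesis in liver and in many carcinomas.

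Promoter windows from RefSeq (GRCm38.p6), each covering 250 bases before to 50 bases after a start annotated for a gene, were found for 6 of the 8 genes. Not all lie at the outermost start. The windows of Fasn, Acaca (chr11:84195188-84195487) and Srebf1 and the second window of Me1 lie inside the RefSeq bounds of the gene. The windows of Fasn and Acly are shown as those with a CCAAT box or a GC box among the 4 genes with a window that were highest in 1 line, MTO68, and the first window of Me1 because Me1 was not highest there. Acaca and Elovl6, the other two, had windows with neither motif. The Fasn window lies at chr11:120824498-120824797, the Acly window at chr11:100527951-100528250 and the Me1 window at chr9:86695865-86696164, all on the minus strand. Capitals mark CCAAT boxes (CCAAT or its reverse complement ATTGG) and GC boxes (GGGCGG or its reverse complement CCGCCC).
Fasn: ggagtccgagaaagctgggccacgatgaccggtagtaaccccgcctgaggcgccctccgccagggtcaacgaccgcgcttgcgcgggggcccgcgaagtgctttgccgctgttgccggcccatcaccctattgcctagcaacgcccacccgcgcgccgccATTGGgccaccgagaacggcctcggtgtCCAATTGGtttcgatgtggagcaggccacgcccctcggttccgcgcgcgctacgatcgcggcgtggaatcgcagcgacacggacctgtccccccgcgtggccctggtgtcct
Acly: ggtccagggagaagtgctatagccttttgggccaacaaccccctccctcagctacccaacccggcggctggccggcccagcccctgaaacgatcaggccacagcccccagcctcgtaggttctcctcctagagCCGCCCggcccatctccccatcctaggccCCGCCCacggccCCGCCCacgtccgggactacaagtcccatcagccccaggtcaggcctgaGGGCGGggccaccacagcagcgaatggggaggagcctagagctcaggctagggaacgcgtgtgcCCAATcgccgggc
Me1: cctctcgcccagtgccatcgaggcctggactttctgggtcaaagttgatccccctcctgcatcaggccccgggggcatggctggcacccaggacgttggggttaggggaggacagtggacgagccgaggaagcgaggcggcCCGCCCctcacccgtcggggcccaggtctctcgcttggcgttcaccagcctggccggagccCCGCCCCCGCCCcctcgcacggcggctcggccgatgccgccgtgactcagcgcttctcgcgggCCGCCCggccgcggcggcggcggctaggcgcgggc
The Fasn window held 3 CCAAT boxes, of which 2 on opposite strands overlap in 1 run, and no GC box. The Acly window held 1 CCAAT box and 4 GC boxes, and this Me1 window held 4 GC boxes and no CCAAT box. A CCAAT box was present in 37.4% and a GC box in 35.7% of all 32851 windows. A sterol regulatory element written TCACNCCAC, searched on both strands and present in 1.24% of all windows, was in no window of the 6 genes, and neither was the E-box CACGTG, present in 7.15%. A match or its absence describes only these letters in these windows.

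Values are deposited log2 values made with RMA, so a difference of 1 is a doubling, and a level of 1 probe set cannot be set against that of another. Array medians ranged from 4.93 to 5.12, and the standard deviation of the values on an array from 1.46 to 1.83. Within MTO68, control replicate 2 had an array standard deviation of 1.47, against 1.76 in control replicate 1 and 1.82 and 1.81 in the treated tumours. Comparisons that use MTO68 are therefore also given without that array, an alternative chosen for the gene lists after seeing the data. This was done where leaving it out changed a direction, or a difference or list median printed here by over 1.5 times. Changes in calls are given for some comparisons only. The epithelial marker Epcam lay between 9.65 and 11.6 in every tumour, and all 15 epithelial markers passed the filter. In whole tumour fragments, fewer cells of a type and less RNA per cell cannot be told apart.

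**Figure D1:**
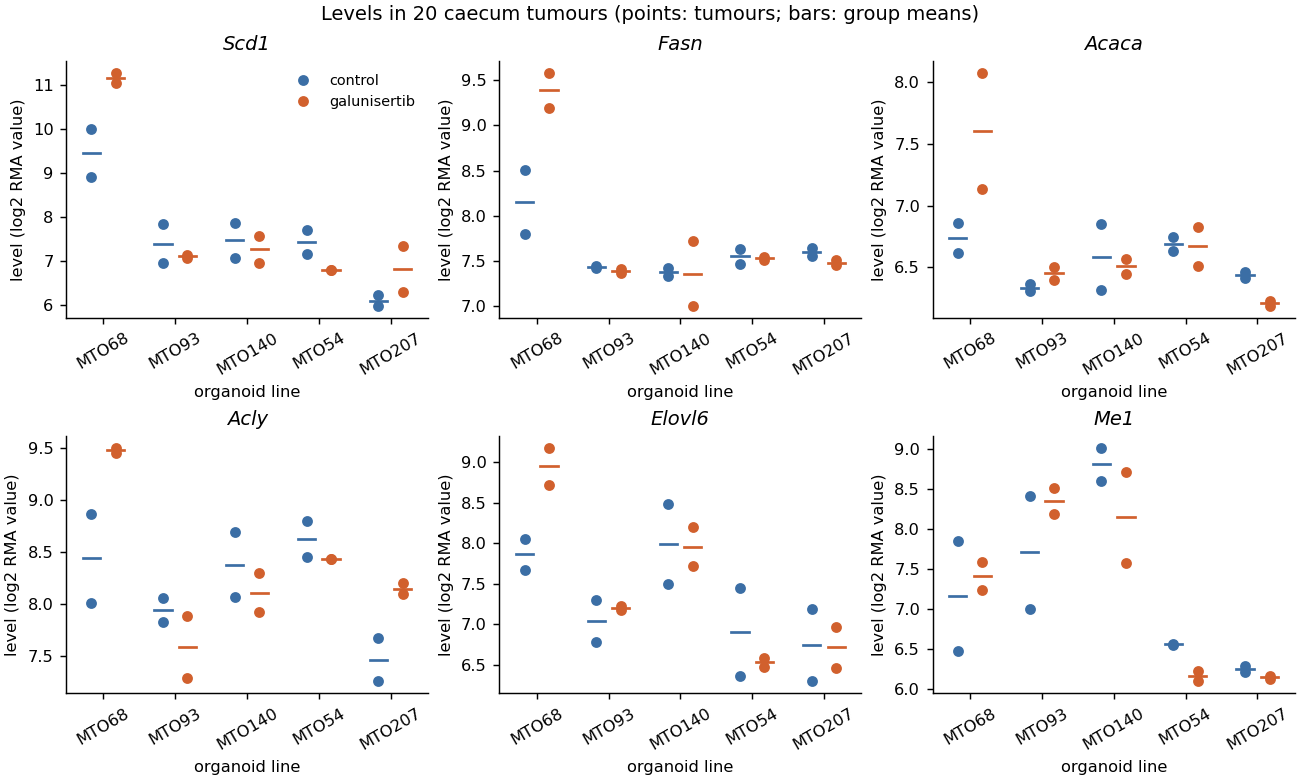
Log2 level of each of the 6 measured genes (vertical axes) in the 5 organoid lines (horizontal axes), with 1 point per tumour, blue for control and orange for galunisertib, and bars at the mean of each group of 2. Scd1 in the 4 MTO68 tumours, at 8.91 to 11.3, lies above all 16 other tumours, while Me1 is highest in MTO140.

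Scd1, Fasn, Acly, Acaca and Elovl6 had their highest line mean in MTO68, whereas Me1 followed another order of lines. In Scd1 and Fasn all 4 MTO68 tumours lay above the 16 others. Such an order of means or separation of MTO68 was not counted over all genes. The F test between the 5 lines (limma, adjusted over 15556 genes) called all 6 measured genes, beside 55.4% of all genes tested. The genes had been chosen with such results known, so these calls are descriptions and no independent support.

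Scd1, the stearoyl-CoA desaturase that makes oleic from stearic acid (chromosome 19, 44394450 to 44407709, GRCm38.p6), had control values of 10.00 and 8.91 and galunisertib values of 11.28 and 11.05 in MTO68. In MTO93 they were 7.83 and 6.96 without and 7.13 and 7.07 with galunisertib, and in MTO140 7.87 and 7.08 without and 7.58 and 6.96 with it. In MTO54 they were 7.15 and 7.70 without and 6.80 and 6.79 with galunisertib, and in MTO207 5.98 and 6.23 without and 6.31 and 7.33 with it. All 4 MTO68 tumours were thus above every other tumour, with no overlap, and the lowest values were the controls of MTO207. The line means were 10.3 ± 1.09 (SD, n = 4) in MTO68, 7.37 ± 0.43 in MTO140, 7.25 ± 0.39 in MTO93, 7.11 ± 0.43 in MTO54 and 6.46 ± 0.60 in MTO207. Neighbours in that order below MTO68 overlapped in their ranges. The difference between MTO68 and MTO93, which share a genotype label, was 3.06 (SE 0.30, 8.34-fold, limma adjusted p = 2.29e-05), the 20th largest of 15556 genes in size. A second Scd1 probe set correlated with the first at r = 0.99 over the 20 tumours, as a description, and had line means from 5.46 in MTO207 to 9.53 in MTO68.

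Fasn, the fatty acid synthase (chromosome 11, 120805958 to 120825166), was at 8.51 and 7.80 in MTO68 controls and at 9.58 and 9.19 with galunisertib. In the other 16 tumours it ranged from 7.00 to 7.72 with a median of 7.46, below all 4 MTO68 tumours. Among those 4 lines the means lay between 7.37 and 7.54, and in an F test without MTO68, an alternative chosen after seeing the data, the lines were not called for Fasn (limma adjusted p = 0.596). MTO68 exceeded MTO93 by 1.36 (SE 0.18, 2.56-fold, limma adjusted p = 0.000333).

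Acly, the ATP citrate lyase (chromosome 11, 100476352 to 100528000), was at 8.86 and 8.01 in MTO68 controls and at 9.45 and 9.50 with galunisertib. In MTO54 it was at 8.80 and 8.45 without and at 8.43 and 8.43 with galunisertib, in MTO140 at 8.69, 8.07, 8.30 and 7.92, in MTO93 at 8.06, 7.83, 7.88 and 7.29, and in MTO207 at 7.26, 7.67, 8.09 and 8.20. The treated MTO68 tumours and control replicate 1 lay above the 16 tumours of the other lines, and control replicate 2 fell among them. The line means were 8.96 ± 0.69 (SD, n = 4) in MTO68, 8.53 ± 0.18 in MTO54, 8.24 ± 0.34 in MTO140, 7.81 ± 0.43 in MTO207 and 7.77 ± 0.33 in MTO93. MTO68 exceeded MTO93 by 1.19 (SE 0.22, 2.28-fold, limma adjusted p = 0.00235).

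Acaca, the acetyl-CoA carboxylase of the cytosol (chromosome 11, 84129635 to 84401651), was at 6.62 and 6.86 in MTO68 controls and at 8.08 and 7.14 with galunisertib. The 16 other tumours lay between 6.19 and 6.85, so 1 MTO68 control fell among them, the other was just above them, and both treated tumours stood clear. The MTO68 mean of 7.17 exceeded that of MTO93 by 0.78 (SE 0.18, 1.71-fold, limma adjusted p = 0.00854).

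Elovl6, the elongase that takes palmitate to stearate (chromosome 3, 129532386 to 129638495), was at 8.06 and 7.67 in MTO68 controls and at 8.72 and 9.18 with galunisertib. In MTO140 it was at 8.48 and 7.50 without and at 8.20 and 7.72 with galunisertib, which overlaps the MTO68 controls, while the 12 tumours of MTO93, MTO54 and MTO207 lay between 6.30 and 7.45. MTO68 exceeded MTO93 by 1.29 (SE 0.29, 2.44-fold, limma adjusted p = 0.00684). With its second probe set the difference was 0.19 (limma adjusted p = 0.413). Another Elovl6 probe set correlated with the first at r = 0.93 over the 20 tumours, as a description, against 0.71 for the second, and had line means of 5.81 in MTO68 and 5.13 in MTO93, so the probe sets differed in the size of the difference. The mean of the Elovl6 probe sets gave 0.72 (limma adjusted p = 0.0127).

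Me1, the cytosolic malic enzyme (chromosome 9, 86581363 to 86695914), had its highest levels outside MTO68. In MTO140 it was at 9.01 and 8.60 without and at 8.72 and 7.58 with galunisertib, and in MTO93 at 8.42 and 7.00 without and at 8.19 and 8.51 with it. In MTO68 it was at 7.85 and 6.48 without and at 7.24 and 7.59 with galunisertib. The 8 tumours of MTO54 and MTO207 lay between 6.09 and 6.56, below 11 of the 12 LAKTP tumours and overlapping only MTO68 control replicate 2. MTO68 minus MTO93 was -0.74 (SE 0.33, limma adjusted p = 0.0957), which did not pass the threshold of 0.05, and a second probe set gave -1.12 (limma adjusted p = 0.00818).

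In the comparison of MTO68 with MTO93, 5 of the 6 genes were called and all 5 were higher in MTO68, beside 33.4% of all genes. The median difference was 1.24 over the 6 genes and 0.03 over all genes. Without MTO68 control replicate 2 the same 5 genes were called, the median was 1.39, and Me1 was at -0.40, while 9121 of all genes were called in place of 5192. Markers of other kinds were compared between these lines as well. All 11 proliferation genes were higher in MTO68, 5 of them called, with a median of 0.55. Of 10 macrophage markers 8 were higher, with a median of 0.63, and 1 was called, a share below that of all genes. Without MTO68 control replicate 2 those medians were 0.70 and 0.97, with 11 and 8 genes higher. The mean of the proliferation genes lay between 7.27 and 8.12 in MTO68 and between 7.05 and 7.49 in MTO93, and that of the macrophage markers between 7.09 and 8.15 and between 7.01 and 7.32. Of 6 squamous and sebaceous markers 5 were lower in MTO68, 3 of them called, with a median of -0.62. The part of all these markers in the differences of the 6 genes was not tested. With the array standard deviation as a covariate the Scd1 difference was 2.52 (limma adjusted p = 0.00109), and those of Acaca and Elovl6 no longer passed (adjusted p = 0.0729 and 0.102). With only the control tumours, 10 arrays in place of 20, none of the 6 genes was called, beside only 11 of all genes. The Scd1 difference was then 2.06 (limma adjusted p = 0.419).

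The lines of other genotype or type were compared with the mean of MTO68 and MTO93. In MTO54, 3 of the 6 genes were called, all lower, beside 5.84% of all genes. Scd1 was lower by 1.67 (SE 0.26, 3.19-fold, limma adjusted p = 0.00188), with Me1 at -1.30 and Elovl6 at -1.05. In MTO207, 4 of the 6 were called, all lower, beside 7.93% of all genes. There the Scd1 difference was -2.32 (SE 0.26, 5.00-fold lower, limma adjusted p = 0.000603), and those of Me1, Elovl6 and Fasn were -1.46, -1.03 and -0.55. In MTO140, 2 of the 6 were called, both lower, beside 13.5% of all genes, with Scd1 at -1.41 (SE 0.26, limma adjusted p = 0.00371) and Fasn at -0.72. Between MTO54 and MTO207, 0 of the 6 genes were called by limma, beside 1.27% of all genes. There 2 of the 6 had an unadjusted limma p under 0.05, beside 3765 of all 15556 genes tested.

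For Scd1 these 3 comparisons rest on MTO68. Against MTO93 alone, an alternative chosen after seeing the data, the Scd1 differences were -0.14 in MTO54, -0.79 in MTO207 and 0.12 in MTO140 (limma adjusted p = 0.818, 0.997 and 0.762). Me1 differed by more against MTO93 alone, at -1.67 in MTO54 (SE 0.33, limma adjusted p = 0.0358) and -1.83 in MTO207 (SE 0.33, adjusted p = 0.105). Against MTO68 alone the Me1 differences were -0.93 (adjusted p = 0.0705) and -1.09 (adjusted p = 0.0173). Control tumours alone gave no call for any of the 6 genes in the 3 comparisons. Of all genes only 25 were called there in MTO54, 3 in MTO207 and 20 in MTO140. With each of the 20 arrays left out in turn, Scd1 stayed called in all 3 comparisons. Me1 lost its call on leaving out MTO54 control replicate 1, either treated MTO54 tumour, MTO207 control replicate 1 or either treated MTO207 tumour, and Fasn in MTO140 on leaving out galunisertib replicate 2 (adjusted p = 0.0715). Elovl6 lost its call in 6 such fits in MTO54 and 5 in MTO207, and Fasn in MTO207 in 14. Leaving out MTO68 control replicate 2 gave 4 of the 6 genes called in MTO54, 6 in MTO207 and 2 in MTO140, while the calls over all genes became 1540, 7194 and 2142.

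Galunisertib was set against control within each line. In MTO68 all 6 genes had higher means with galunisertib, as did 52.4% of all genes. Of the 6 genes 5, all but Me1, had both treated tumours above both controls. How many of all genes were separated in this way was not counted. By limma 5 of the 6 genes and 5127 of all 15556 genes tested had an unadjusted p under 0.05 in MTO68. One gene, Fasn, was called, beside 2.01% of all genes. The median difference over the 6 genes was 1.06, against 0.04 over all genes. In MTO93, MTO140, MTO54 and MTO207, 0 of the 6 genes were called, beside 0% of all genes in MTO93, MTO54 and MTO207 and 0.00643% in MTO140. Of the 24 gene-by-line values in those 4 lines, only Acly in MTO207 had an unadjusted limma p under 0.05.

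**Figure D2:**
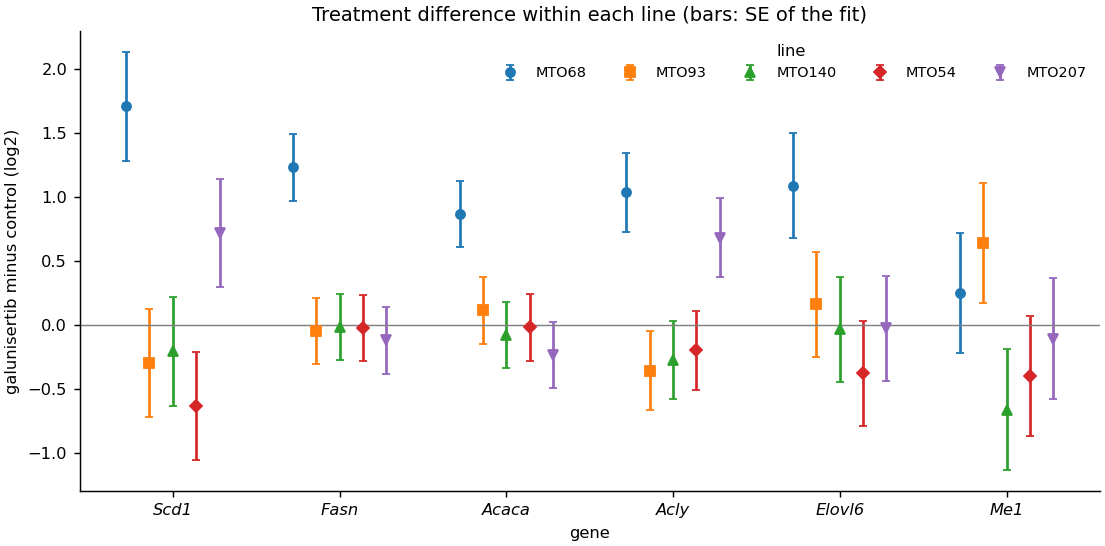
Galunisertib minus control on the log2 scale (vertical axis) for each gene (horizontal axis) in each of the 5 lines, with bars for the SE of the fit on 2 against 2 tumours. The MTO68 values of Scd1, Fasn, Acaca, Acly and Elovl6 lie between 0.87 and 1.71, and the 24 values in the other lines between -0.66 and 0.72.

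Fasn in MTO68 rose from a mean of 8.15 to 9.39, by 1.23 (SE 0.26, 2.35-fold, limma adjusted p = 0.0323). The call sits near the threshold, since with each of the 20 arrays left out in turn it was kept in 9 and lost in 11 (adjusted p from 0.00127 to 0.308), and array weights gave an adjusted p of 0.442. Scd1 had the largest difference of the 6, from a mean of 9.46 to 11.2, or 1.71 (SE 0.42, 3.27-fold), with a limma adjusted p of 0.053. The differences of Acly, Acaca and Elovl6 were 1.04, 0.87 and 1.09 (limma adjusted p = 0.0752, 0.0754 and 0.109). Me1 differed by 0.25 (SE 0.47, limma adjusted p = 0.698), with overlapping groups.

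The MTO68 control tumours were themselves unlike, and 5 of the 6 genes, all but Acaca, were lower in control replicate 2. Without control replicate 2 the differences were 1.17 for Scd1, 0.88 for Fasn, 0.61 for Acly, 0.99 for Acaca, 0.90 for Elovl6 and -0.43 for Me1, 0 of the 6 genes were called, and 40 of all genes were. Without control replicate 1 those of Scd1, Fasn and Acly were 2.25, 1.59 and 1.46, and Scd1, Fasn, Acly and Elovl6 were called, among 8323 genes. With the array standard deviation as a covariate Fasn was at 0.89 (limma adjusted p = 0.231) and Scd1 at 1.02 (adjusted p = 0.48). A second Acaca probe set was called in MTO68, at 1.16 (limma adjusted p = 0.021), while second probe sets gave 1.59 for Scd1, 0.51 for Acly, 0.21 for Elovl6 and 0.01 for Me1, none called.

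**Figure D3:**
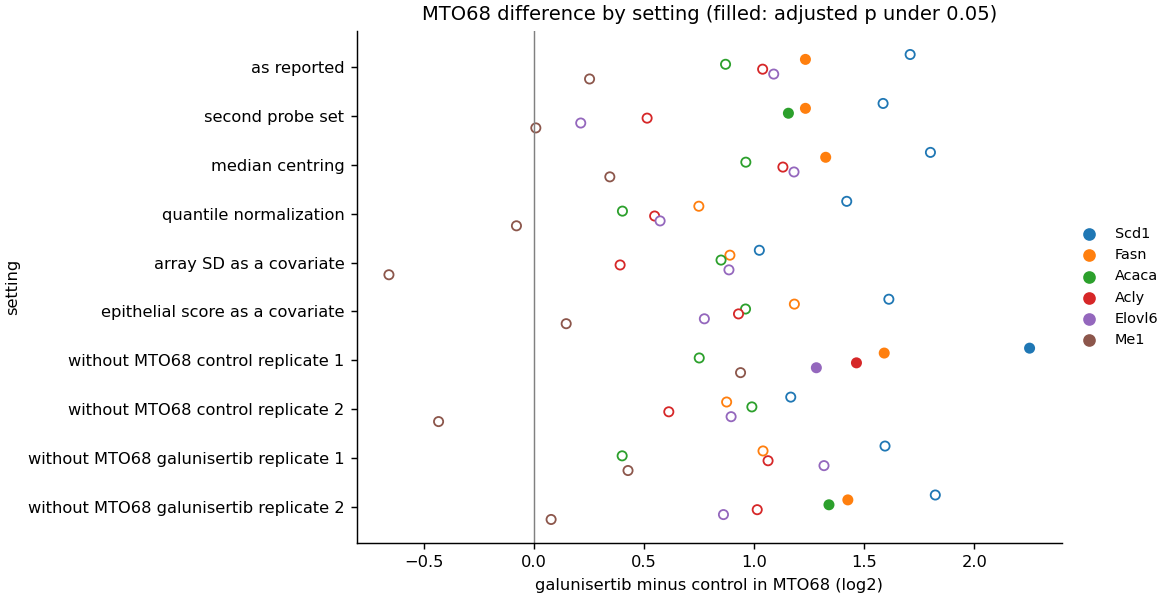
Galunisertib minus control in MTO68 on the log2 scale (horizontal axis) for the 6 genes, as reported and under 9 alternatives (vertical axis), with filled points where the limma adjusted p was under 0.05. The Scd1 value ranges from 1.02 with the array standard deviation as a covariate to 2.25 without control replicate 1, and Me1 changes sign.

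In MTO93 the differences ran from -0.36 for Acly (SE 0.31) to 0.64 for Me1 (SE 0.47). In MTO140 all 6 genes had lower means with galunisertib, where 51.1% of all genes had higher means. All 6 overlapped between the groups, none was called, and the difference largest in size was -0.66 for Me1. In MTO54 all 6 means were lower with galunisertib and none was called, where 53.2% of all genes had higher means. In 3 genes, Scd1, Acly and Me1, both treated tumours lay below both controls. On its second probe set Me1 differed by -0.11 in MTO54, with overlapping groups. The difference largest in size there was -0.63 for Scd1 (SE 0.42). In MTO207 Scd1 differed by 0.72 (SE 0.42) and Acly by 0.68 (SE 0.31, limma adjusted p = 0.646), and in both genes the treated tumours lay above the controls. The second Acly probe set differed by 0.03 in MTO207, with overlapping groups, and the second Scd1 probe set by 1.29. The other 4 genes had lower means in MTO207 with galunisertib, from -0.23 for Acaca to -0.03 for Elovl6. In Fasn, Acaca and Me1 both treated tumours lay below both controls, but the groups overlapped on the second probe sets of Acaca and Me1. As in MTO68, such separation of treated from control tumours was not counted over all genes in MTO54 or MTO207.

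Over the 5 lines together, with the line as a block, 0 of the 6 genes were called, beside 0% of all genes. By limma 0 of the 6 genes and 1238 of all genes had an unadjusted p under 0.05. The averaged differences were 0.26 for Scd1 (SE 0.26), 0.21 for Fasn, 0.18 for Acly, 0.16 for Elovl6, 0.13 for Acaca and -0.05 for Me1. These became 0.08, 0.08, 0.06, 0.07, 0.10 and -0.17, in the same order, with MTO68 control replicate 2 left out, and 43 of all genes but none of the 6 were then called. Without MTO68 the first 5 were negative, from -0.10 for Scd1 to -0.03 for Acly. The test of whether the treatment difference varied between lines called 0 of the 6 genes, beside 0.0643% of all genes. Its F was 5.03 for Scd1, 4.91 for Fasn and 4.29 for Acly (limma adjusted p = 0.563 for each). Without MTO68 control replicate 1 the F of these 3 genes rose to 7.41, 8.48 and 7.56, and without control replicate 2 it fell to 3.42, 2.71 and 3.58. Each of those fits rests on 1 control tumour in MTO68.

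Correlations between the genes over tumours were computed for 15 pairs, 28 having been planned before Scd2 and Srebf1 were found to have no probe set. The MTO68 tumours form a cluster of their own in Scd1 and Fasn, so no pooled value is given for these. Over the 16 tumours of the other lines, which share lines and strips, Scd1 and Fasn had r = -0.02 (permutation p = 0.94) and a Spearman rho of -0.14 (permutation p = 0.603). Elovl6 and Me1 had r = 0.70 (permutation p = 0.00267, adjusted over 15 pairs 0.04) and rho = 0.66 (permutation p = 0.00574, adjusted 0.0861). Without the 2 tumours farthest from the Elovl6 median that r was 0.52, and with line means removed 0.14. The permutations shuffled tumours across lines, so their p-values take no account of tumours that share a line and strip. By r, 1 of the 15 pairs passed over these 16 tumours, and 11 over all 20, where MTO68 is included.

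**Figure D4:**
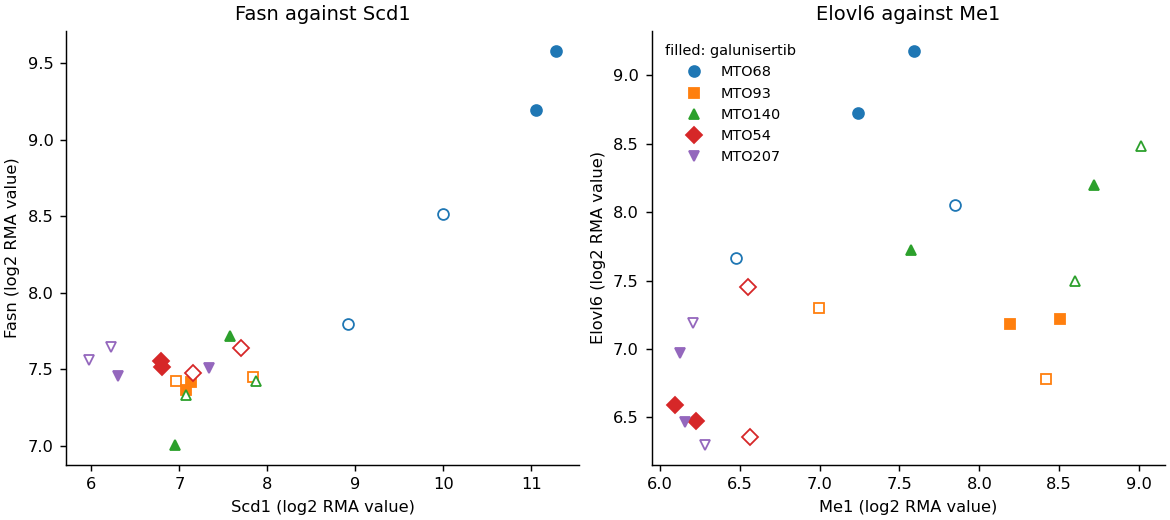
Fasn against Scd1 (left) and Elovl6 against Me1 (right), log2 values, with 1 point per tumour, a colour and shape per line, and filled points for galunisertib. The 4 MTO68 tumours lie apart at the upper right of the left panel, and on the right the 8 tumours of MTO54 and MTO207 lie at Me1 values of 6.09 to 6.56.

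Marker genes of other cells were set beside these levels. Adipocytes, which make fatty acids in fat tissue, had 12 markers listed, of which 8 had a probe set and 6 passed the filter. Adipoq, the adipocyte hormone adiponectin, lay between 3.93 and 4.70 in all 20 tumours, near the filter level of 4.16. The mean of the 6 markers ranged from 5.58 to 5.84 in MTO68 controls, from 5.44 to 5.78 in treated MTO68 tumours, and from 5.41 to 6.06 in the 16 others. In MTO68, 4 of these 6 markers were lower with galunisertib and none was called. Fabp4, Lpl and Retn had the highest levels among them.

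The mean of 15 epithelial markers lay between 8.58 and 9.54 in MTO68 controls and between 9.07 and 9.80 in treated MTO68 tumours, and 13 of the 15 were higher with galunisertib. The mean of 11 fibroblast markers lay between 7.12 and 8.39 in the controls and between 6.83 and 7.41 in the treated tumours, with 10 of the 11 lower. The mean of 11 proliferation genes lay between 7.27 and 7.87 in the controls and between 7.91 and 8.12 in the treated tumours, with 11 of the 11 higher. When MTO68 control replicate 2 was left out the direction of the epithelial markers was lost, with 7 of the 15 higher and a median difference of -0.04 in place of 0.36. In the same fit 0 of the 11 fibroblast markers were higher, with a median of -1.09 in place of -0.68, and 8 of the 11 proliferation genes were higher, with a median of 0.18 in place of 0.47. None of these markers was called in MTO68 with or without that array, and their part in the treatment differences was not tested apart from the epithelial score. With that score as a covariate Fasn in MTO68 was at 1.18 (limma adjusted p = 0.0637) and Scd1 at 1.61. Across lines, the MTO140 tumours had the highest epithelial means, 10.0 to 10.6, and with the epithelial score as a covariate the Scd1 difference between MTO68 and MTO93 was 3.14 (limma adjusted p = 4.15e-05). Among 24 relations of a gene with a marker score over the 16 tumours without MTO68, only Elovl6 with the epithelial score passed, at r = 0.86 (permutation p = 6e-05, adjusted 0.00144) and rho = 0.78 (permutation p = 0.00065, adjusted 0.0156). That r was 0.82 without the 2 farthest tumours and 0.56 with line means removed. Here too the permutation p-values take no account of tumours that share a line, and none was computed with line means removed. Over all 20 tumours, MTO68 included, 5 of the 24 relations passed by r. These were Scd1, Fasn, Acly and Elovl6 with the proliferation score, and Me1 with the epithelial score. Elovl6 with the epithelial score was at r = 0.51 there (permutation test, adjusted p = 0.0899). With line means removed, Scd1 and the proliferation score had r = 0.69 over 20 tumours and 0.60 over 16.

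Of neighbouring pathways, cholesterol synthesis held the most calls in MTO68. With galunisertib 5 of its 15 tested genes were called there, all higher, beside 2.01% of all genes. All 15 were higher, and the median difference was 1.05. Sqle, the squalene epoxidase, rose by 2.19 (SE 0.43, limma adjusted p = 0.022) from a control mean of 6.20. Idi1, the isopentenyl diphosphate isomerase, rose by 2.02, Fdps, the farnesyl diphosphate synthase, by 1.77, Nsdhl, a sterol dehydrogenase, by 1.52, and Fdft1, the squalene synthase, by 0.79. Without MTO68 control replicate 2 none of the 15 was called, all 15 were still higher, and the median was 0.69. Over the same 4 arrays the 6 fatty acid synthesis genes had a median of 1.06, and 0.89 without that array.

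**Figure D5:**
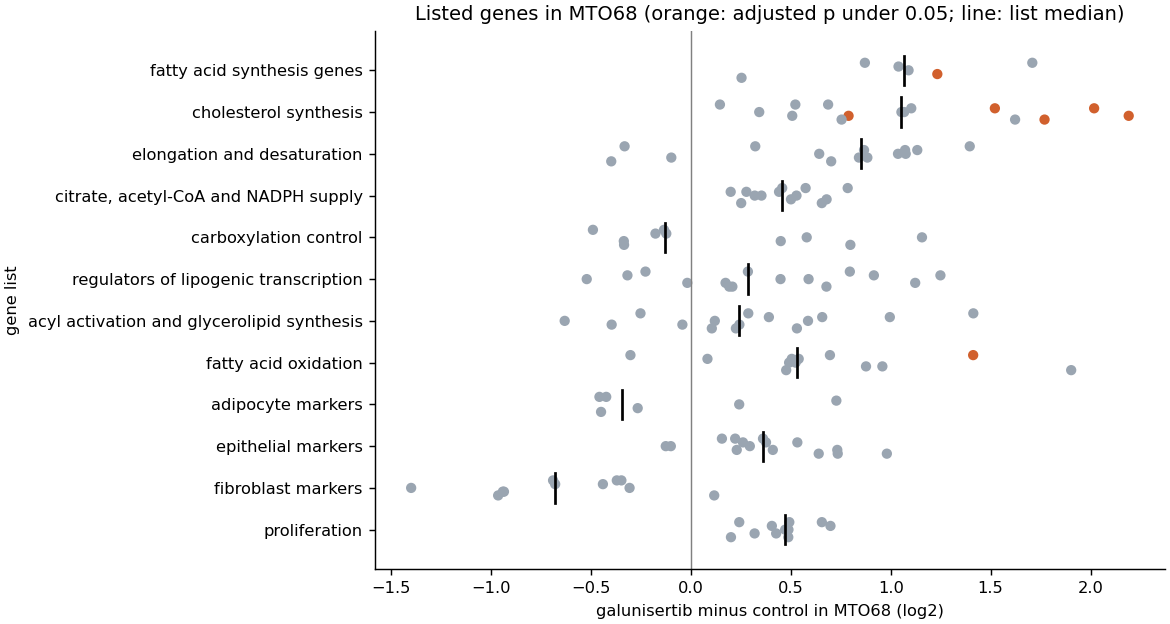
Galunisertib minus control in MTO68 on the log2 scale (horizontal axis) for each tested gene of 12 lists (vertical axis), with orange points where the limma adjusted p was under 0.05 and a black line at the list median. The medians of the fatty acid synthesis and cholesterol synthesis genes are 1.06 and 1.05, and 1 and 5 of their genes are orange.

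Among 12 genes of fatty acid oxidation, Cpt2, a mitochondrial carnitine palmitoyltransferase, rose in MTO68 by 1.41 (SE 0.33, limma adjusted p = 0.0474). Cpt2 was at 1.10 without MTO68 control replicate 2 and no longer passed (limma adjusted p = 0.433), and the median of the 12 genes was 0.09 in place of 0.53. Of 14 genes of elongation and desaturation 0 were called there and 11 were higher, with a median of 0.85 that became 0.27 without that array. Of 13 genes of citrate, acetyl-CoA and NADPH supply 0 were called and 13 were higher, with a median of 0.46, and without that array 11 were higher, with a median of 0.11. The lists of carboxylation control, of transcriptional regulators of lipogenesis and of acyl activation and glycerolipid synthesis had 0 calls of 10, 15 and 15, with medians of -0.13, 0.28 and 0.24, and again 0 calls without that array, with medians of 0.04, 0.21 and 0.08. Over the 5 lines together 0 genes of these 7 lists were called by limma, and the smallest unadjusted p were those of Stk11 (0.00607, difference -0.24) and Dhcr7 (0.00671, difference 0.45).

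Between lines, Fads1 had the same order of line means as Scd1. Fads1, the delta-5 desaturase of polyunsaturated fatty acids, had group means of 8.75 and 9.79 in control and treated MTO68 tumours, and between 6.61 and 7.40 in the 8 groups of the other lines. MTO68 exceeded MTO93 by 2.12 in Fads1 (SE 0.19, limma adjusted p = 1.11e-05) and by 1.42 in Fads2, the delta-6 desaturase (SE 0.27, adjusted p = 0.00298). In that comparison 7 of 14 elongation and desaturation genes were called, 6 of them higher, and 7 of 15 cholesterol genes, all higher, led by Tm7sf2 at 2.20 and Sqle at 1.75. These counts stand beside the 33.4% of all genes called. Of 15 regulators 6 were called, a share near that of all genes, and 5 of the 6 were higher, among them Mbtps1, the protease that cleaves SREBP proteins (1.63), Scap, their escort protein (0.91), and Insig1, which retains them (0.82). Pparg, a nuclear receptor of fat cells and gut epithelium, was the called regulator that was lower, at -0.83. Without MTO68 control replicate 2, when 9121 of all genes were called, 13 of the 14 elongation and desaturation genes, 8 of the 15 cholesterol genes and 7 of the 15 regulators were called, and Pparg, at -0.69, was not (limma adjusted p = 0.0669).

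MTO207 was again set against the mean of MTO68 and MTO93. There 7 of 15 cholesterol genes, 6 of 14 elongation and desaturation genes and 3 of 15 regulators were called, all lower, beside 7.93% of all genes. Fads1 was at -1.52, Tm7sf2 at -1.47 and Mbtps1 at -1.51. In MTO54, 3 of 14 elongation and desaturation genes were called, all lower, with Fads2 at -1.42 and Fads1 at -1.40. Of 15 cholesterol genes 1 was called there, a share near the 5.84% of all genes. The counts without MTO68 control replicate 2 were 10, 13 and 8 in MTO207 and 3 and 5 in MTO54, with the larger calls over all genes given above. MTO140, which was also implanted in another way, had another profile. In this line 7 of 12 fatty acid oxidation genes and 5 of 13 supply genes were called, all higher, beside 13.5% of all genes. So were 4 of 15 glycerolipid genes and 3 of 15 regulators, the last a share near that of all genes. Dgat2, which makes triglycerides, was at 1.78 and Pparg at 1.75. Slc16a1, a monocarboxylate carrier, was at 1.53 and Slc25a20, the carnitine carrier of mitochondria, at 1.51. Fads1 in MTO140 was lower by 0.92. Of the 15 epithelial markers 8 were called in MTO140, all higher, and with the epithelial score as a covariate the Scd1 and Fasn differences of MTO140 were -1.66 and -0.85 and no longer passed (limma adjusted p = 0.105 and 0.203).

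As a description with no test, the 5 genes most like Scd1 over the 20 tumours by Pearson r were Large2, Echdc2, Rev3l, Tm7sf2 and Aldh1l1, with r between 0.95 and 0.96. Over the 16 tumours without MTO68 their r with Scd1 lay between 0.50 and 0.78. Aldh1l1, a folate enzyme, had line means of 8.07 in MTO68 and 4.42 to 5.32 in the other lines. The 5 genes most like the mean of the 6 genes were Zfp445, Ptch1, Chchd3, Acot13 and Tmem70, with r between 0.95 and 0.98 over the 20 tumours and between 0.83 and 0.95 over the 16.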

How the data were processed

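Total RNA of whole tumour fragments was hybridised to Affymetrix mouse arrays, per the labels' protocols. The authors deposited log2 values, 1 for each probe set and array. The submitters' processing notes name RMA and affy without versions. Background correction by RMA compresses the differences of dim genes. RMA also includes quantile normalization, yet the standard deviation of the deposited values still ranged from 1.46 to 1.83 between arrays. LY in the treatment label was taken to mean galunisertib.

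Of 45141 probe sets 28898 had 1 gene symbol, 551 several, 15588 none named here, and 104 were controls. Symbols were updated through Entrez IDs for 28689. Each of 17097 genes was represented by its probe set of highest mean level, and the 15556 above 4.16 (the 25th percentile) on at least 2 arrays were tested. No array pair held identical values. The number of arrays limits the precision.

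Differences were fitted over all genes in R 4.3.3 with limma 3.58.1, using lmFit and eBayes with a trend, once with line as a block and once with 10 group means, with Benjamini-Hochberg adjusted p under 0.05, two-sided. Correlations used permutation tests with 100000 resamples (scipy 1.17.1), in which tumours were shuffled across lines. The fitting was tested on simulated data. Promoter windows, gene positions and symbols came from RefSeq tables (GRCm38.p6).

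The genes, the pathway and marker lists and the tests were chosen with earlier results of these data known. All measured genes are named. Of each pathway list the text names genes past the threshold, up to 4 by size, with Fdft1 named beyond that to complete a count of 5, or else those of smallest p over the 5 lines or between lines. Of these the text prints those a result turns on. Of markers it names up to 3 by level, and Adipoq and Epcam were added after their values were seen. Alternatives changed the filter, the probe set, the normalization, the test settings, the covariates, the lines and the single arrays.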

Additional observations from a re-analysis of the deposited data

Results flagged for a closer look

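Each gene was screened within each line for a tumour far from the other 3, in 30 sets of 4. A single value stood out, Acly in MTO54 control replicate 1 at 8.80, where the other 3 tumours lay between 8.43 and 8.45. Its gap to the nearest value was 0.945 of the range, above Dixon's 95% critical value for 4 values. Chance gives about 1 in 20 such sets, so 1 of 30 is no more than that rate.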

How the results depend on the processing

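No paired analysis was possible because the replicate numbers follow only the order of the records and pair no tumours. Of 1443 recomputed values of single genes, 1310 kept their direction and their side of the threshold. Another 18 came to pass the threshold, 95 fell short of it and 20 changed sign. The cause of a change was not tested unless stated. Fits on control tumours only used 10 arrays, and each fit without an array assumes that a lone tumour varies like the other groups.

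Averaged over the 5 lines, leaving out line MTO68 turned the differences negative for Scd1 (-0.10), Fasn (-0.051), Acaca (-0.052), Acly (-0.034) and Elovl6 (-0.067). Acly was also negative with the array standard deviation as a covariate (-0.012) and Elovl6 with the epithelial score as one (-0.11). Me1 turned positive with its second probe set (0.022), with array weights (0.15), without line MTO140 (0.10) and without line MTO54 (0.033), and ranged from -0.20 to 0.072 with single arrays left out. In MTO68 the Me1 difference was -0.079 after quantile normalization and -0.66 with the array standard deviation as a covariate, and it ranged from -0.43 to 0.94 with single arrays left out. In MTO93 the Me1 difference ranged from -0.068 to 1.35. Against MTO93 alone, Fasn in MTO207 was at 0.13 and Scd1 in MTO140 at 0.12.

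The number of genes called over the 5 lines was 0 as reported. It was 55 after quantile normalization, 116 with array weights, 166 with the array standard deviation as a covariate, 2 with the epithelial score, 2 as the mean of the 5 within-line effects, 10 without line MTO68, 2 without line MTO54, and from 0 to 43 with single arrays left out. In MTO68 the count of 312 became 147 after quantile normalization, 13 with array weights, 62 with the array standard deviation, 130 with the epithelial score, and from 40 to 8323 without single arrays. In MTO93 it was 4 with array weights and at most 1, and otherwise 0, without single arrays. In MTO140 the count of 1 became 2 with no filter, 11 with the array standard deviation, 0 with the stricter filter, median centring, eBayes without trend, array weights or the epithelial score, and from 0 to 26 without single arrays. In MTO54 the count of 0 became 1 with second probe sets and from 0 to 9 without single arrays, and in MTO207 it became 144 with array weights. The interaction count of 10 became 6 with the stricter filter, 3 without trend, 0 with array weights, 2 with the array standard deviation, 0 without line MTO68, and from 2 to 2807 without single arrays.

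With only control tumours the count between the 5 lines fell from 8611 to 27. It was 4332 with the array standard deviation and 5599 with the epithelial score. For MTO54 minus the parental LAKTP mean, 909 became 2315 with the array standard deviation, 576 with the epithelial score, 25 in control tumours, 96 against MTO93 and 2640 against MTO68, and from 253 to 1540 without single arrays. For MTO207, 1233 became 4400 with array weights, 215 with the array standard deviation, 649 with the epithelial score, 3 in control tumours, 4 against MTO93 and 7503 against MTO68, and from 115 to 7194 without single arrays. For MTO140, 2095 became 1088 with array weights, 97 with the epithelial score, 20 in control tumours and 4325 against MTO93, and from 602 to 5928 without single arrays. For MTO68 minus MTO93, 5192 became 3381 with array weights, 1121 with the array standard deviation, 11 in control tumours, and from 1926 to 9121 without single arrays. For MTO54 minus MTO207, 197 became 406 after quantile normalization, 3283 with array weights, 39 with the array standard deviation, 0 in control tumours, and from 9 to 1990 without single arrays.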
